A study of Mus musculus with 8 samples.

Results

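The ectodysplasin receptor system was read out with the probe sets that the platform annotation gives to 1 of 6 genes alone: the ligand gene Eda, the receptor genes Edar, Eda2r and Tnfrsf19, and the adaptor genes Edaradd and Traf6. These came to 21 of the 34945 probe sets with a single gene symbol, among 45037 probe sets tested. Eda, Edaradd and Traf6 had 5 probe sets each, Tnfrsf19 had 3, Edar had 2 and Eda2r had 1. No probe set named a member together with another gene. The rule uses gene names and no measured value, but the genes were chosen with earlier results of these data known.

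The series asked how raised Runx1, a transcription factor, changes hair follicle stem cells at rest. Skin cells carrying a keratin 15-GFP reporter and α6-integrin were sorted by the surface protein CD34 and hybridised to Affymetrix mouse expression arrays, with 2 arrays for each of 4 groups. The groups were wild-type (WT) CD34-positive cells, WT CD34-negative cells, and the same sorted populations from mice carrying a Tet-on Runx1 transgene (Runx1 iTG), a design in which doxycycline turns a transgene on. All mice, WT included, had received doxycycline for 1 day at 1 g per kg of food, and the treatment record gives repression of H2BGFP as its purpose. The skin was labelled telogen, when follicles rest. Mice were at postnatal day 20 for 6 arrays, and at day 21 for transgenic replicate 2 of each sort. Which promoter drives the transgene, and in which cells, was not given in the sources used here. The labels call the CD34-positive cells bulge and the CD34-negative cells hair germ.

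Ectodysplasin, encoded by Eda, is a TNF-family ligand that is cut from the cell surface and acts on neighbouring epithelial cells. Its A1 form binds the death-domain receptor EDAR, and its A2 form binds the receptor encoded by Eda2r. EDAR recruits the adaptor EDARADD, which passes the signal through TRAF6 and the TAB and TAK1 proteins to the IKK complex and NF-κB. Loss of Eda, Edar or Edaradd causes hypohidrotic ectodermal dysplasia, with sparse hair, missing teeth and few sweat glands. Tnfrsf19, also called Troy, encodes a related TNF receptor expressed in epithelial progenitors. In the postnatal follicle, EDAR signalling has been tied to the hair cycle.

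The RefSeq promoter windows of Eda and Edar are shown because these genes were bright in opposite populations. All 6 members matched the promoter table (assembly GRCm38.p6), which holds 250 bases before to 50 bases after each annotated start. Capitals mark matches, on either strand, to the RUNX motif TGNGGT and to the TCF/LEF motif CTTTGA.
Eda, chrX:99975356-99975655, plus strand: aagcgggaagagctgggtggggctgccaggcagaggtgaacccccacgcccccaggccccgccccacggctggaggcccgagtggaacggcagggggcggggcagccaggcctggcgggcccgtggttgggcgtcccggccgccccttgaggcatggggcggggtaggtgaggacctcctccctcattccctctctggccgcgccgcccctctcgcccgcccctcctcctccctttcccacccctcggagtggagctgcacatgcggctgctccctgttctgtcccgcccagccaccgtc
Edar, chr10:58675647-58675946, minus strand: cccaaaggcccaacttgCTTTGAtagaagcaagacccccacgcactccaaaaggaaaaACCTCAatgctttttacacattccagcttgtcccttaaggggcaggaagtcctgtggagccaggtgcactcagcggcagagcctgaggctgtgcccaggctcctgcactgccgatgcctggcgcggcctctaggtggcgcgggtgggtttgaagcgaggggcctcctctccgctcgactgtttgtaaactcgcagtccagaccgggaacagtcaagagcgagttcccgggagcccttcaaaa
The Edar window held 1 match to each motif and the Eda window held neither. Among the windows not printed, that of Eda2r also held neither. The Tnfrsf19 windows held 1 RUNX and 1 TCF/LEF match, and 2 RUNX and 0 TCF/LEF matches. Edaradd had 2 RUNX matches and Traf6 had 1, with 0 TCF/LEF matches in each. Whether the matches bear on the population differences was not tested. Of all 32817 promoter windows of this length, 45.8% held the RUNX motif and 16% the TCF/LEF motif. The NF-kappaB consensus, found in 8.46% of windows, was in none of the 7 windows of the members. Bases G and C made up 74.3% of the Eda window and 58.7% of the Edar window, against a median of 52.7%. A match is a description of these letters and not a binding site.

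Several facts of the series as a whole touch the member values. The Runx1 probe set with the highest mean read 489 to 903.7 on the WT arrays and 12110 to 19460 on the transgenic arrays. Cd34, the sort gene, read 4902 to 11210 in CD34-positive cells and 1.52 to 53.2 in CD34-negative cells. Xist, transcribed from the inactive X chromosome of females, read 30.2 to 72.5 on every replicate 1 array and 9973 to 11100 on every replicate 2 array, while the Y-linked gene Eif2s3y read 1853 to 2425 and 2.29 to 22.1. The 2 arrays of each group therefore differed in sex-linked signal. Eda and Eda2r lie on chromosome X, so population differences within each replicate number are given beside their values. The labels call the samples biological replicates but do not say whether the sorted populations of a replicate number came from the same mice, so comparisons between populations may not rest on independent samples.

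Marker lists matched the bulge label better than the hair germ label. Here a marker fell or rose only where its adjusted p was under 0.05, as 8.46% and 8.55% of all genes did. In CD34-negative against CD34-positive cells, averaged over genotypes, 8 of 9 bulge markers fell, among them Lhx2 (log2 −4.36) and Fgf18 (−4.37), and their summed intensity was 50670 to 64510 in CD34-positive and 6396 to 11720 in CD34-negative cells. Of 8 measured hair germ markers 5 fell and 0 rose: Cdh3 (−0.98), Lef1 (−1.89), Msx2 (−3.44), Gli1 (−4.18) and Ptch1 (−1.66). Their sums were 7418 to 12120 in CD34-positive and 2078 to 3179 in CD34-negative cells. Upper follicle and sebaceous markers rose for 6 of 7 genes, such as the wax synthesis gene Far2 (4.37), and Lgr6 fell (−1.06). Their summed intensity was 12380 to 15920 in WT and 17460 to 20210 in transgenic CD34-positive cells, and 54680 to 69070 in WT and 64850 to 69520 in transgenic CD34-negative cells. Dermal papilla and fibroblast markers ran the other way, and 3 of 10 fell in CD34-negative cells (Col1a1, −4.92, Col1a2, −4.13, and Col3a1, −3.00), while Sox2 and Lum lay below background on all 8 arrays. Their summed intensity was 4940 to 9342 in CD34-positive and 374.7 to 858.7 in CD34-negative cells. Melanocyte markers fell for 2 of 7 genes (Dct and Mitf), endothelial markers for 1 of 5 (Tek), immune markers for 0 of 9, with Ptprc below background throughout, and interfollicular markers for 5 of 6. The CD34-negative cells are therefore called by their sort below. Apart from the immune markers, these lists held genes that differed between the populations, as members did. The part of the lists in the member differences was not tested. In such sorted pools, fewer cells of a type and less RNA per cell cannot be told apart.

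The comparison of sorted populations asks which of these genes differ between the CD34-positive and CD34-negative cells. The ligand gene Eda was higher in CD34-positive cells, and the receptor genes Edar and Tnfrsf19 and the adaptor gene Edaradd were higher in CD34-negative cells, while Eda2r and Traf6 did not pass the test. Averaged over genotypes, 12 of the 21 member probe sets passed (adjusted p under 0.05), 7 higher and 5 lower in CD34-negative cells, from 4 of the 6 genes. Of all probe sets, 14% passed (6.63% higher and 7.39% lower). The median absolute difference was 1.08 over the members and 0.52 over all probe sets. In WT 4 of 21 passed (4.61% of all probe sets), 1 higher (2.02%) and 3 lower (2.59%). In the transgenics 6 of 21 passed (6.98%), 3 higher (3.08%) and 3 lower (3.9%). The groups did not overlap for 17 of 21 in WT (49.2% of all probe sets), 14 of 21 in the transgenics (49.3%) and 10 of 21 over all 8 arrays (19.5%). Several probe sets read the same gene, so the 21 are not independent. The averaged count fell to 6 without WT CD34-positive replicate 2, either WT CD34-negative array or transgenic CD34-negative replicate 2, and to 7 without transgenic CD34-positive replicate 2. The WT count was 0 without either WT CD34-positive array, 1 without WT CD34-negative replicate 1 and 2 without its replicate 2, and the transgenic count was 1 to 3 without any 1 of the transgenic arrays.

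**Figure D1:**
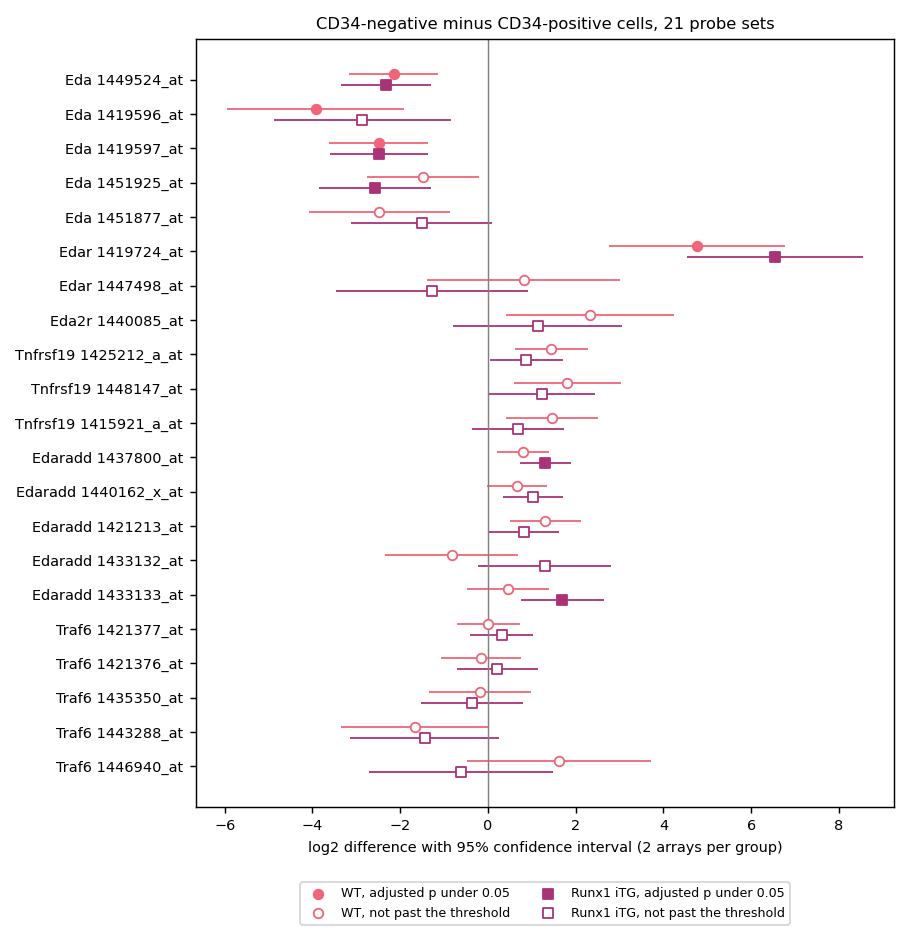
Log2 difference of CD34-negative minus CD34-positive cells with 95% confidence intervals for the 21 probe sets, in WT (circles) and Runx1 iTG (squares), filled where the adjusted p was under 0.05. The Eda intervals lie left of 0 except for 1451877_at in Runx1 iTG, and Edar 1419724_at stands alone on the right at 4.77 and 6.54.

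In detail, the ligand gene Eda was higher in CD34-positive than in CD34-negative cells with all 5 of its probe sets, in both genotypes. Intensities are scaled to a common 75th percentile, and background is taken as 31.1, the 95th percentile of 27 bacterial control probe sets. Probe set 1449524_at, drawn from a RefSeq mRNA, read 344.7 and 485.7 in WT CD34-positive cells, 437.4 and 911.2 in transgenic CD34-positive cells, 107.2 and 79.6 in WT CD34-negative cells, and 110.5 and 144.3 in transgenic CD34-negative cells. The populations did not overlap. Averaged over genotypes, Eda was 4.71-fold lower in CD34-negative cells by this probe set (log2 −2.23, SE 0.32, n = 4 per population, limma adjusted p = 0.00161).

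Other Eda probe sets gave like differences. Probe set 1419597_at read 435.6 and 355.8 in WT and 525.4 and 638.5 in transgenic CD34-positive cells, against 42.4 and 115.2 in WT and 102.3 and 103.9 in transgenic CD34-negative cells. It was 5.62-fold lower in CD34-negative cells (log2 −2.49, SE 0.35, adjusted p = 0.0015). With 1419596_at, values of 691 and 699.8 in WT and 552.7 and 761.4 in transgenic CD34-positive cells stood against 13.2 and 159 in WT and 79.6 and 100.1 in transgenic CD34-negative cells. Here 1 of the WT CD34-negative arrays lay below background, so on these arrays the mean was at least 8.48-fold lower in CD34-negative cells. The fitted log2 difference was −3.39 (SE 0.64, interval −4.82 to −1.97, adjusted p = 0.00649). Without that array the difference was −2.50, and without the other WT CD34-negative array it was −4.29, both past the test, so the size rests on these arrays. The dimmer probe sets 1451925_at and 1451877_at, each drawn from a GenBank mRNA record, were at least 3.92-fold and at least 3.4-fold lower (adjusted p = 0.00883 and 0.0283). In the 1451877_at probe set the CD34-negative arrays straddled background, at 18.9 to 39.5, and the call was kept for 2 of 8 dropped arrays (adjusted p up to 0.12).

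The Eda difference was present at both replicate numbers, and so in arrays of either sex-linked signal. For 1449524_at it was −1.84 among replicate 1 arrays and −2.63 among replicate 2 arrays. Over the 5 probe sets it ran from −4.25 to −1.84 at replicate 1 and from −2.63 to −1.84 at replicate 2. Within WT alone 3 of the 5 probe sets passed (adjusted p = 0.0231 to 0.0384), and within the transgenics 3 passed (0.0152 to 0.0257). With the day 20 arrays alone the averaged call was kept for 1449524_at and 1451925_at and lost for the other 3 (adjusted p = 0.062 to 0.158). The probes were not placed on the A1 and A2 transcripts here.

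Edar showed the opposite pattern, bright in CD34-negative cells and at or under background in CD34-positive cells. Probe set 1419724_at, drawn from a RefSeq mRNA, read 501.2 and 666.6 in WT and 1269 and 1482 in transgenic CD34-negative cells. In CD34-positive cells it read 38.4 and 11.6 in WT and 40.5 and 5.4 in the transgenics, so that 1 array of each group lay above background. Every CD34-negative array stood above every CD34-positive array. In WT, Edar was at least 16.7-fold higher in CD34-negative cells (fitted log2 4.77, 95% confidence interval 2.77 to 6.78, n = 2 per group, adjusted p = 0.0165). In the transgenics it was at least 38.6-fold higher (6.54, interval 4.53 to 8.54, adjusted p = 0.00279), and averaged over genotypes at least 25.4-fold (5.65, SE 0.63, adjusted p = 0.000388). The difference was 4.34 among replicate 1 arrays. At replicate 2 both CD34-positive readings lay under background, so no size is given.

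The other Edar probe set, 1447498_at, gave no such reading. It was drawn from an expressed sequence tag and read 0.973 to 14.3, below background on all 8 arrays, so it measured no level in either population. Its differences of 0.81 in WT and −1.28 in the transgenics carried no call (adjusted p = 0.735 and 0.536). The Edar result therefore rests on a single probe set. The WT call was lost without WT CD34-positive replicate 1 (adjusted p = 0.0535) or replicate 2 (0.172) and without WT CD34-negative replicate 1 (0.0977) or replicate 2 (0.162), with fitted differences of 3.91 to 5.63. The transgenic call was kept whichever of the 8 arrays was dropped (up to 0.041) but not with the day 20 arrays alone (4.97, adjusted p = 0.117) or with only the transgenic groups (0.0508).

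**Figure D2:**
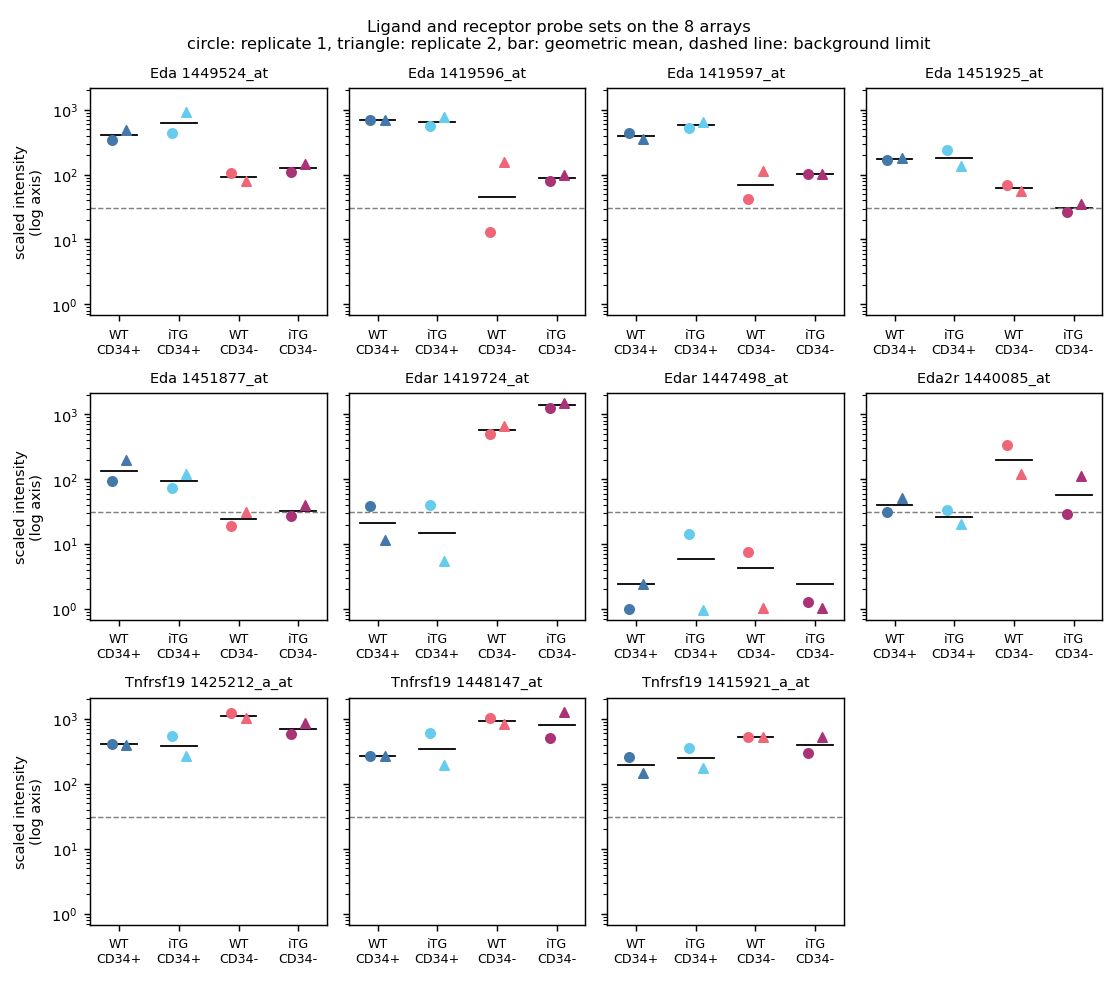
Scaled intensity (log axis) of the 11 ligand and receptor probe sets on each array, by genotype and CD34 sort, with circles for replicate 1, triangles for replicate 2, bars for geometric means (after low values were raised to the floor of 2.42) and a dashed line at the background limit of 31.1. Eda lies higher in CD34-positive cells in its 5 panels, Edar 1419724_at reads 501.2 to 1482 in CD34-negative cells, and Edar 1447498_at stays below background throughout.

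The other receptor genes also leaned towards CD34-negative cells, by less than Edar. Tnfrsf19 probe set 1425212_a_at, whose suffix marks probes shared by transcripts of the gene, read 418.8 and 404.4 in WT and 548.4 and 270.7 in transgenic CD34-positive cells. In CD34-negative cells it read 1225 and 1027 in WT and 581.3 and 860.6 in the transgenics, above every CD34-positive array. Averaged over genotypes it was 2.24-fold higher in CD34-negative cells (log2 1.16, SE 0.26, adjusted p = 0.0157).

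Probe set 1448147_at of Tnfrsf19 rose 2.86-fold (log2 1.52, SE 0.39, adjusted p = 0.0279) with overlapping arrays, and 1415921_a_at differed by 1.07 without passing (adjusted p = 0.0585). The overlap came from the transgenic arrays: transgenic CD34-positive replicate 1 read 608 with 1448147_at, above the 513.2 of transgenic CD34-negative replicate 1. In the transgenics the difference of that probe set was −0.24 at replicate 1 and 2.70 at replicate 2, and in WT it was 1.97 and 1.65. Within a genotype no Tnfrsf19 probe set passed in the main fit (adjusted p = 0.0579 to 0.12 in WT and 0.216 to 0.476 in the transgenics). In WT, 1425212_a_at did pass in 5 of 19 other settings, such as 1 probe set a gene (adjusted p = 0.0479). There 1448147_at passed with only the groups compared (0.0484). The averaged call of 1425212_a_at was lost without either WT CD34-positive array, either WT CD34-negative array or transgenic CD34-negative replicate 2 (adjusted p = 0.0541 to 0.0703). That of 1448147_at was lost for 6 of the 8 dropped arrays, the exceptions being transgenic CD34-positive replicate 1 or transgenic CD34-negative replicate 1 (adjusted p up to 0.11).

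Eda2r, the receptor for the A2 form, had a single dim probe set, 1440085_at, from an expressed sequence tag. It read 31.5 and 51 in WT and 33.4 and 20.5 in transgenic CD34-positive cells, and 337.2 and 119.1 in WT and 29.3 and 112.2 in transgenic CD34-negative cells. The WT CD34-negative arrays stood above every other array, and transgenic CD34-negative replicate 1 lay below background. Averaged over genotypes Eda2r was at least 2.98-fold higher in CD34-negative cells, with transgenic CD34-positive replicate 2 under background, and the fitted difference of 1.73 (SE 0.61, interval 0.37 to 3.08) did not pass (adjusted p = 0.0937), although it did under quantile normalization (0.044). In WT it was 2.32, with 3.42 at replicate 1 and 1.22 at replicate 2 (adjusted p = 0.178). In the transgenics the fitted difference was 1.13 (adjusted p = 0.534) with overlapping groups, and at replicate 1 both transgenic values lay close to background, at 33.4 and 29.3, with the CD34-negative one the lower.

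Adaptor genes came next. Edaradd, which links EDAR to TRAF6, was higher in CD34-negative cells with 4 of its 5 probe sets, averaged over genotypes. Within WT 0 of 5 passed (differences of −0.83 to 1.31, adjusted p = 0.0789 to 0.642), and within the transgenics 2 of 5 passed, 1437800_at (1.31, adjusted p = 0.0171) and 1433133_at (1.70, adjusted p = 0.0416). Probe set 1437800_at read 600.3 and 647.1 in WT and 347.1 and 334.8 in transgenic CD34-positive cells, against 938.9 and 1235 in WT and 880.9 and 807.7 in transgenic CD34-negative cells. No CD34-positive array reached a CD34-negative array. The gene was 2.07-fold higher in CD34-negative cells by this probe set (log2 1.05, SE 0.19, adjusted p = 0.0049), and the call passed whichever array was left out (up to 0.0281).

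Probe set 1421213_at, drawn from the Edaradd RefSeq mRNA, read 464.5 and 247 in WT and 336 and 268 in transgenic CD34-positive cells. Its CD34-negative arrays were higher, at 754.9 and 929.4 in WT and 475.2 and 593.6 in the transgenics (log2 1.06, SE 0.26, adjusted p = 0.0216). The 1440162_x_at probe set, whose suffix marks probes that may bind other transcripts, rose by 0.84 (adjusted p = 0.028), and 1433133_at by 1.08 (adjusted p = 0.0393), the mean of 0.46 in WT and 1.70 in the transgenics. With the intensities as deposited that of 1433133_at did not pass (0.0502). The fifth, 1433132_at, went its own way (0.23, adjusted p = 0.811). It read 606.6 and 459.9 in WT CD34-positive cells, above all other arrays, and 312.9 and 51.4 in transgenic CD34-positive cells. Its CD34-negative arrays read 286.3 to 321.1. When single arrays were left out, the calls of 1421213_at (adjusted p up to 0.0947), 1440162_x_at (up to 0.103) and 1433133_at (up to 0.13) were kept in 2, 1 and 0 of the 8 fits. None of the Edaradd and Tnfrsf19 calls was kept with the day 20 arrays alone, where the Tnfrsf19 differences were 0.77 (1425212_a_at) and 0.78 (1448147_at), and of these calls that of Edaradd 1437800_at was the single one kept without the intensity trend.

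Traf6, a ubiquitin ligase shared by TNF-receptor and Toll-like receptor signalling, did not pass between populations with any of its 5 probe sets, though the dim 1443288_at did under other settings. The brighter probe sets read 377.9 to 1072 (1421377_at) and 270.6 to 734.4 (1421376_at), and their averaged differences were 0.16 (interval −0.35 to 0.67) and 0.03 (−0.61 to 0.68). Probe set 1443288_at, close to background, read 55.5 to 68.1 in CD34-positive and 14.8 to 33.6 in CD34-negative cells without overlap, at least 1.97-fold lower (adjusted p = 0.0869). It passed, averaged, without the intensity trend (0.0403), and, with all values raised to the background limit, averaged (−0.98, adjusted p = 0.00671), in WT (0.0274) and in the transgenics (0.0294). The remaining 2 differed by −0.27 and 0.50 (adjusted p = 0.697 and 0.693), and 1446940_at was above background on 4 arrays.

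**Figure D3:**
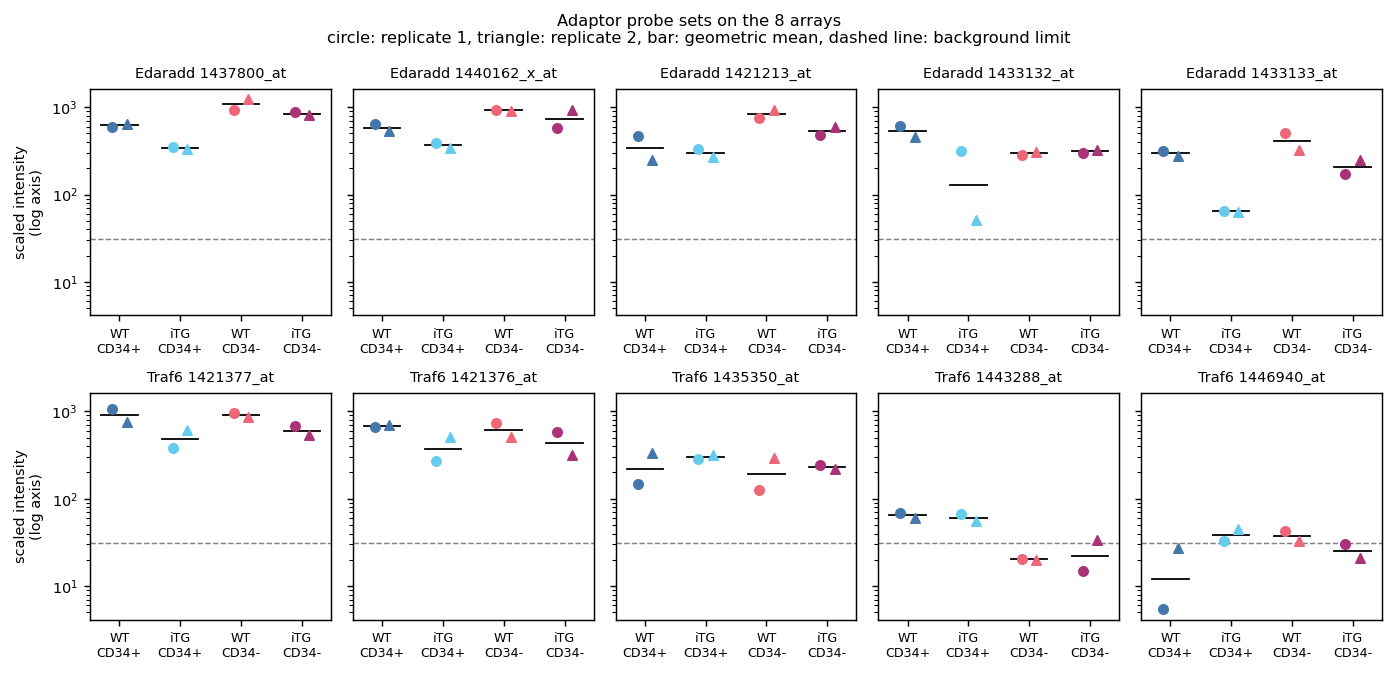
Scaled intensity (log axis) of the 10 adaptor probe sets on each array, with symbols, bars and dashed background line as for the ligand and receptors. Edaradd 1433133_at reads 62.7 and 65.4 in transgenic CD34-positive cells against 275 and 316.6 in WT, and Traf6 1421377_at covers 377.9 to 1072 over all arrays.

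The transgene comparison asked whether raised Runx1 changed these genes within a sorted population. No member probe set passed in CD34-positive cells (0.00444% of all probe sets passed), in CD34-negative cells (0.00888%) or on average (0.0377%). The groups did not overlap for 8 of 21 in CD34-positive cells (33.6% of all probe sets), 6 of them lower with the transgene (18.1%), for 11 of 21 in CD34-negative cells (35.1%), 9 of them lower (17.2%), and for 2 of 21, both lower, over all arrays (2.6%, and 1.33% lower). At an unadjusted p under 0.05 there were 4 of 21 in CD34-positive cells (5.67% of all probe sets), 1 of 21 in CD34-negative cells (6.29%) and 5 of 21 on average (7.46%). These counts come from the limma fit. The transgenic comparisons share no arrays between populations, but the average uses both.

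The largest member difference with the transgene, by unadjusted p, lay in Edaradd. Its probe set 1433133_at read 316.6 and 275 in WT and 65.4 and 62.7 in transgenic CD34-positive cells (log2 −2.20, interval −3.15 to −1.26, adjusted p = 0.406). In CD34-negative cells it read 510.9 and 320.9 in WT and 173.6 and 248.1 in the transgenics (−0.96, adjusted p = 0.782). All 4 transgenic arrays lay below all 4 WT arrays (average −1.58, adjusted p = 0.192). The other Edaradd probe sets differed by −2.06 to −0.17 in CD34-positive cells and by −0.66 to 0.07 in CD34-negative cells. Of these, 1437800_at read 600.3 and 647.1 in WT against 347.1 and 334.8 in transgenic CD34-positive cells (−0.87, adjusted p = 0.768). The −2.06 was that of 1433132_at, with −0.955 at replicate 1 and −3.16 at replicate 2.

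Traf6 probe set 1421377_at was the other member whose genotypes did not overlap over all arrays. It read 1072 and 758.8 in WT and 377.9 and 618.4 in transgenic CD34-positive cells, and 946 and 866.9 against 676.3 and 531.5 in CD34-negative cells (average −0.75, interval −1.26 to −0.24, adjusted p = 0.485). The other bright probe set, 1421376_at, gave −0.69 (adjusted p = 0.627) and the dimmer 1435350_at gave 0.35 (adjusted p = 0.869), so the Traf6 probe sets did not share a sign.

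Edar was brighter in transgenic than in WT CD34-negative cells on both arrays, 1269 and 1482 against 501.2 and 666.6. The difference of 1.25 had an interval of −0.76 to 3.25 and did not pass (adjusted p = 0.915). In CD34-positive cells both genotypes averaged below background, so no Edar fold is given there. Eda2r was at least 3.39-fold lower in transgenic than in WT CD34-negative cells, with transgenic replicate 1 under background (fitted −1.81, interval −3.73 to 0.11, adjusted p = 0.821). Replicate 1 read 337.2 in WT and 29.3 in the transgenics, but replicate 2 read 119.1 and 112.2. The size of this Eda2r difference therefore rests on the replicate 1 arrays. The Tnfrsf19 probe sets differed by −0.10 to 0.38 in CD34-positive and −0.67 to −0.20 in CD34-negative cells, and those of Eda by −0.54 to 0.63 and −1.06 to 0.96.

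Whether the transgene changed the population difference was tested directly with an interaction term, and 0 of 21 passed, with 0 at an unadjusted p under 0.05 (4.2% of all probe sets). For Edar 1419724_at the term did not pass (adjusted p = 1), and no size is given because both CD34-positive means lay below background. Edaradd 1433132_at had the smallest unadjusted p of the members, at 0.0521 (2.12, interval −0.02 to 4.27, adjusted p = 1).

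**Figure D4:**
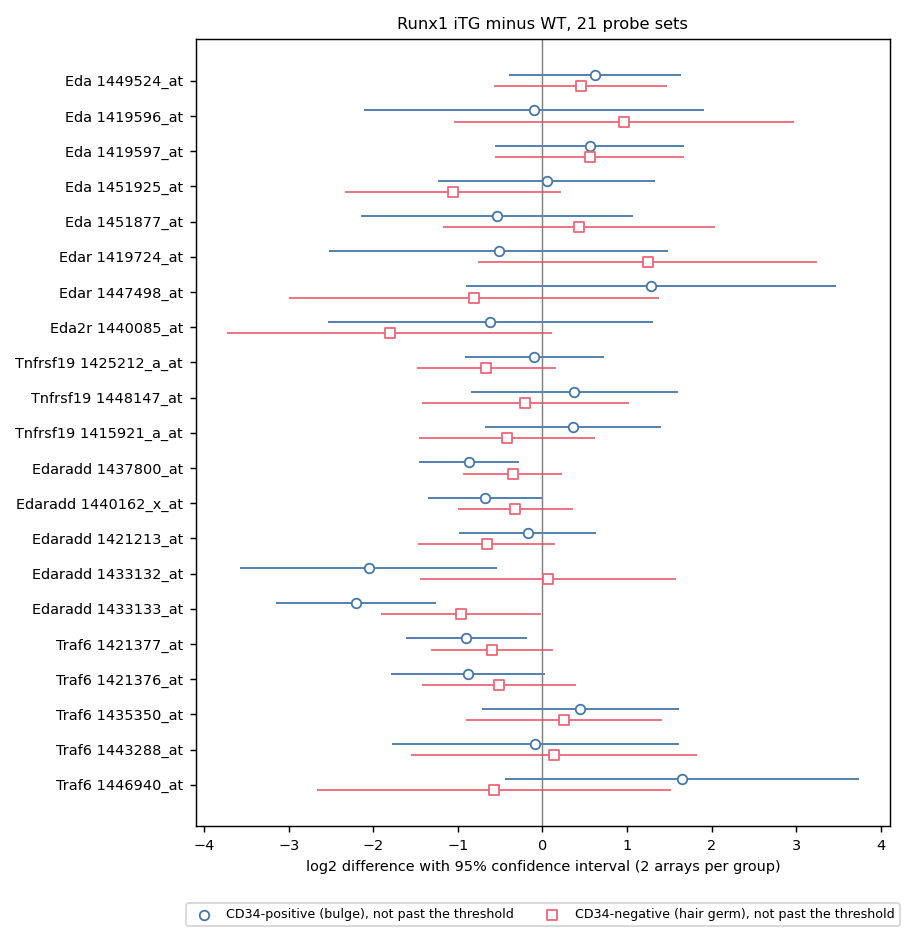
Log2 difference of Runx1 iTG minus WT with 95% confidence intervals for the 21 probe sets, in CD34-positive (circles) and CD34-negative cells (squares). All symbols are open because no adjusted p was under 0.05, and Edaradd 1433133_at in CD34-positive cells lies farthest left at −2.20.

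Downstream of the receptors, the list from EDAR to NF-κB held genes that carry the signal, NF-κB genes themselves and genes of their inhibitors. Of these, 20 of 20 measured genes were above background on all 8 arrays, and 1 passed between populations. Nfkbiz, an atypical IκB protein gene, read 169.8 on average in WT and 324.5 in transgenic CD34-positive cells, and 1045 in WT and 1258 in transgenic CD34-negative cells. It rose 4.88-fold in CD34-negative cells (log2 2.29, SE 0.20, adjusted p = 8.25e-05), and passed within WT (2.62, adjusted p = 0.000915) and within the transgenics (1.95, adjusted p = 0.0033). The list's median difference was −0.06, against −0.09 over the brightest probe sets of all genes, of which 8.55% passed as higher and 8.46% as lower. The kinase genes Ikbkb (−0.11), Map3k7 (−0.11) and Ikbkg (0.16), the last a scaffold of the IKK complex, and the protease gene Furin (−0.25), whose product cleaves ectodysplasin, did not pass (adjusted p = 0.323 to 0.807). Within WT 2.7% of all genes passed as higher and 3.23% as lower, and within the transgenics 4.01% and 4.82%. With the transgene 0 of 20 passed in CD34-positive cells (0.011% of all genes), in CD34-negative cells (0.011%) or on average (0.044%). By unadjusted p the first on average was Nfkbia, the classical IκB inhibitor (1.00, SE 0.15, adjusted p = 0.0774), followed by Nfkbiz (0.60, adjusted p = 0.521), Traf2 (0.74, adjusted p = 0.654) and Rel (−0.31, adjusted p = 0.767).

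Among genes known as ectodysplasin targets in skin appendages, 17 were measured, 3 of them shared with the list above. Averaged over genotypes, 1 was higher (8.55% of all genes) and 2 were lower (8.46%) in CD34-negative cells. The chemokine gene Cxcl10 was at least 4.24-fold higher (fitted log2 2.79, SE 0.70, adjusted p = 0.0268). The matricellular gene Ccn2 was 17.8-fold lower (−4.16, SE 0.34, adjusted p = 6.11e-05), with group means of 9909 in WT and 10910 in transgenic CD34-positive cells against 842.4 in WT and 402.8 in transgenic CD34-negative cells. Follistatin (Fst), which binds activins, was 2.66-fold lower (−1.41, adjusted p = 0.00326). The list's median was −0.04, against −0.09 over all genes. Its summed intensity was 40600 to 44060 in CD34-positive and 22770 to 30370 in CD34-negative cells. Ccn2 alone, with the means given above, made up a large part of that gap, and 8 of the 17 genes were higher in CD34-negative cells. Shh, a ligand switched on downstream of Edar in developing placodes, was above background on 5 arrays and did not pass (−0.92, adjusted p = 0.63). With the transgene 0 of 17 passed, and apart from Nfkbia the smallest unadjusted p on average were those of Wnt10b (1.66, adjusted p = 0.492), Wnt10a (−0.77, adjusted p = 0.631) and Cxcl11 (1.23, adjusted p = 0.665).

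**Figure D5:**
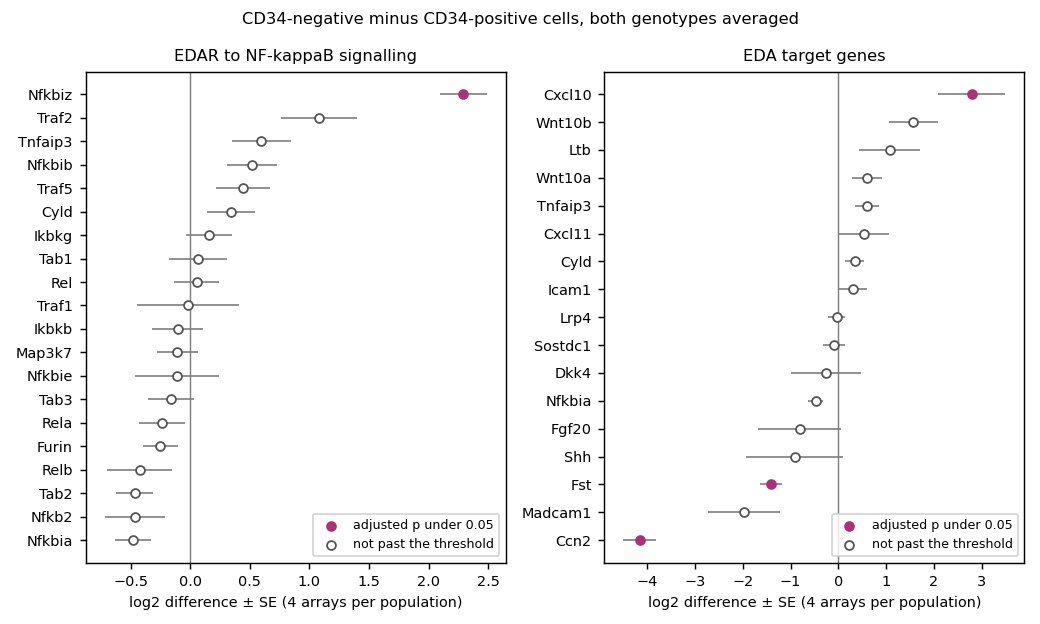
Log2 difference of CD34-negative minus CD34-positive cells, averaged over genotypes, with standard errors, for the measured genes from EDAR to NF-κB (left) and for ectodysplasin target genes (right), each by its brightest probe set. Nfkbiz at 2.29 and Cxcl10 at 2.79 are filled on the higher side, and Fst at −1.41 and Ccn2 at −4.16 on the lower side.

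The genes whose log2 intensity followed a receptor most closely over the 8 arrays were taken from 10877 genes. For Edar these were Tcim (Pearson r = 0.998), the early growth response gene Egr3 (0.996), the transporter gene Abcb1b (0.996), Ndufv1 (0.993) and Acad9 (0.992). The arrays share populations and genotypes, and Edar lay below background on 2 of the 4 CD34-positive arrays, so its values rest mainly on the gap between populations. Tcim had means of 284.5 in WT and 235.8 in transgenic CD34-positive cells, and 1055 in WT and 1683 in transgenic CD34-negative cells. For Eda2r the closest were Tlr3 (0.971), Thbd (0.952), Cdca4 (0.947), Plekha1 (0.942) and Marveld3 (0.936), and for Tnfrsf19 Ppp2r2c (0.985), Hba-a2 (0.970), Cdca4 (0.967), Golt1b (0.965) and Rffl (0.963).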

How the data were processed

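The deposited table gives an intensity per probe set as the authors processed it, unlogged, for 45101 probe sets on 8 arrays. Per the labels, 5 ng of total RNA was amplified with NuGEN Ovation Pico WTA and labelled with the Encore Biotin Module. With 2% trimmed at either end, array means came to 500, a scaling read from the values. The summarising program was not given in the sources used here.

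After removal of 64 control probe sets, arrays were put on the same 75th percentile. A floor of 2.42, the smallest of the arrays' 5th percentiles, replaced the 3.48% of values below it before log2. The platform annotation named the probe sets: 34945 had 1 symbol, 932 several and 9160 none. Group means were estimated jointly from the 8 arrays by limma 3.58.1 under R 4.3.3 (residual degrees of freedom 4, median total 9.77, intensity trend). The 7 comparisons share arrays. Adjusted p is Benjamini-Hochberg over all 45037 probe sets, with a threshold of 0.05. The median SE of a difference between groups was 0.604, since 2 arrays per group limit the precision. P-values set each difference against the spread between arrays within groups, pooled over the 4 groups and moderated with the intensity trend. Within a group the arrays also differed in sex-linked signal and, in the transgenics, in age. Where an array of the dimmer group lay under background (31.1), its value was raised to that limit and the ratio is given as "at least". Such a ratio bounds the ratio of geometric means on these arrays and is not a confidence limit. Between 69% and 77% of probe sets lay above the background limit on each array. The fit was tested on simulated data.

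Every single-gene probe set of the 6 members is named. List genes stand as their probe set with the highest mean, and those past the threshold, or up to 4 by unadjusted p, are named; other list genes named were chosen after their values were seen. For likeness, the 5 genes with the highest correlation are named, among genes whose brightest group mean reached 126, the median. The members and lists were chosen with earlier results of these data known. Alternatives are in the closing section.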

Additional observations from a re-analysis of the deposited data

How the results depend on the processing

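No member probe set passed for the transgene or the interaction under any setting. For CD34-negative against CD34-positive cells, the number of member probe sets past the threshold (4 in WT, 6 in the transgenics, 12 averaged) was 0, 2 and 7 without the intensity trend, 2, 0 and 3 with the day 20 arrays only, where each lone transgenic array is assumed to vary like the others, and 2 in each genotype with only the groups compared. Quantile normalization gave 2 in WT. Raising all values to the background limit, a setting chosen after seeing the data, gave 2, 4 and 8: averaged, it lost both Tnfrsf19 calls (adjusted p = 0.07 and 0.134) and those of Edaradd 1440162_x_at (0.0547), 1421213_at (0.0668) and 1433133_at (0.0573) and gained Traf6 1443288_at. In WT it left Edar 1419724_at and Traf6 1443288_at, with no Eda call. In the transgenics it lost Eda 1449524_at (0.0712) and 1419597_at (0.0826) and Edaradd 1433133_at (0.0737) and gained Traf6 1443288_at. With 1 probe set a gene, 3 of 6 passed in WT, 3 of 6 in the transgenics and 4 of 6 averaged, fewer by construction. The WT calls then took in Tnfrsf19 1425212_a_at (adjusted p = 0.0479). Leaving out each array gave 0 to 4 in WT, 1 to 6 in the transgenics and 6 to 11 averaged.

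Edar 1419724_at and Eda 1449524_at passed, averaged, in all 18 settings that tested them, with Edar between 4.63 and 6.38. Edaradd 1433132_at, not called with all arrays, turned from 1.29 to −0.0534 in the transgenics with the day 20 arrays only and ranged from −0.00816 to 2.60 as single arrays were left out, the latter without transgenic CD34-positive replicate 1 (adjusted p = 0.0201); the cause was not tested. Correlations between the deviations of same-numbered samples were −0.0321 to 0.0725, although Xist and Eif2s3y split by replicate number in every group. These correlations do not show whether the sorted populations of a number came from the same mice. With the replicate number as a block, the counts were 4, 5 and 11, the lost call being Edaradd 1433133_at in the transgenics (adjusted p = 0.0521) and averaged (0.0502). Signals near background, such as Edar in CD34-positive cells, have no order.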
